A study of Danio rerio with 8 samples.

Results

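The unfolded protein response was read here through 10 genes, chosen by their Ensembl zebrafish names: hspa5, hsp90b1, pdia4, pdia6, calr, xbp1, atf4a, atf4b, atf6 and ddit3. All 10 matched 1 identifier each among the 32520 genes of the count table. Levels are given in CPM, read counts scaled to library size with TMM correction, and differences as log2 fold changes of ddx21 mutants over siblings. Levels are compared between libraries and not between genes, since no transcript lengths were used. RNA was sequenced from endothelial cells sorted from zebrafish embryos at 3 days post fertilisation, with 4 libraries from ddx21 mutants and 4 from siblings. Every embryo carried the transgenes Tg(fli1a:nEGFP), a nuclear green reporter of endothelium, and Tg(5.2lyve1b:DsRed), a red reporter of veins and lymphatics, and the sorted cells were positive for both. The labels give neither the ddx21 allele, nor the genotype of the siblings, nor how many embryos went into a library. Both groups carry replicate numbers 1 to 4, and libraries of the same number are called a pair.

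The endoplasmic reticulum (ER) folds proteins that are secreted or set in membranes. When unfolded proteins build up there, the sensors Ern1, Eif2ak3 and Atf6 are released from the chaperone Hspa5 and signal to the nucleus. Ern1 splices the xbp1 transcript, and Atf6 is cut to free a transcription factor. Together Atf6 and Xbp1 are known to raise ER chaperone genes. Eif2ak3 slows translation through eIF2alpha, which favours translation of Atf4, and Atf4 in turn raises Ddit3 and genes of amino acid supply. Several of these steps act on splicing, cleavage or translation and cannot be seen in counts per gene.

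Library totals ran from 38459219 to 51173007 reads, and each member had at least 3372 reads in every library, so that counting error was small beside the spread between libraries. The ddx21 transcript was at 233, 266, 169.6 and 217 CPM in mutants 1 to 4, against 245, 364, 337 and 301 CPM in siblings 1 to 4 (log2 -0.50, SE 0.21). All 4 pairs had less of it in the mutant, though mutant 2 lay above sibling 1, so that the transcript level alone does not check the labels. The 15 endothelial markers summed to 3883 to 8503 CPM in mutants and 4654 to 9065 CPM in siblings, and all 15 were detected. Of these markers 14 of 15 lay below 0 in mutants, with a median log2 fold change of -0.13, none at an unadjusted p under 0.05, and 3 of 4 pairs had a smaller sum in the mutant. Their detection does not give the purity of the sorted cells. Epidermal markers, described below, summed to 4743 to 92802 CPM in mutants and 2627 to 60752 CPM in siblings. In both groups that sum was larger in replicates 1 and 2 than in replicates 3 and 4. The labels do not state that libraries of a group are from different clutches, and the p-values reflect only how these libraries vary, which may be technical. In sorted bulk samples, fewer cells of a type and less RNA per cell cannot be told apart.

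No gene passed in edgeR: 0 of 18549 tested genes had an adjusted p under 0.05, which is 0% as background. The count at an unadjusted p under 0.05 was 247 genes (1.33%) higher and 309 (1.67%) lower in mutants. With pairs as a block, edgeR again called 0% of genes after adjustment, with 2.98% higher and 2.88% lower at an unadjusted p under 0.05. None of the 10 members passed in either edgeR fit, and the adjusted p was 0.9995 for each of them without the block. On simulated data 5 of 100 genes changed 2-fold were called, so that at the simulated spread smaller changes would mostly be missed. That spread followed the trend over all tested genes and not each gene's own. The share called is therefore not the chance of a call for these members. At an unadjusted p under 0.05, hspa5 and pdia6 were higher without the block, and with it atf4b was lower as well. All 10 were tested, since each lay well above the filter on low counts in every library of both groups. Of them 8 had a log2 fold change above 0, against 50.2% of all tested genes, and their median was 0.15, against 0.0027 over all tested genes. All 5 chaperone members lay above 0, with a median of 0.41, while atf4a, atf4b and ddit3 had a median of -0.15.

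The chaperone hspa5 (BiP), which binds unfolded proteins in the ER and holds the stress sensors inactive, was the member whose groups stood clear of each other. It measured 815, 628, 748 and 699.5 CPM in mutants 1 to 4, against 471, 551, 525 and 468 CPM in siblings 1 to 4. The lowest mutant lay above the highest sibling, which was so for 263 of all tested genes (1.42%). The means were 723 ± 78.6 CPM in mutants and 504 ± 40.9 CPM in siblings (SD, n = 4 each), 1.44-fold. The log2 fold change was 0.52 (SE 0.17, edgeR adjusted p = 0.9995). Its spread was the smallest of the 10 members in both groups, with a coefficient of variation of 10.9% in mutants and 8.13% in siblings.

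The protein disulfide isomerase gene pdia6, whose product makes and rearranges disulfide bonds in the ER, came next. It stood at 273, 209, 346 and 255 CPM in mutants 1 to 4, against 158, 173, 232 and 194 CPM in siblings 1 to 4. Mutant 2 fell below sibling 3, and otherwise the mutants were above the siblings. The log2 fold change was 0.52 (SE 0.21). Its relative pdia4 measured 148, 149, 212 and 167 CPM in mutants, against 119, 122, 158 and 157 CPM in siblings. Here siblings 3 and 4 lay above mutants 1 and 2, and the log2 fold change was 0.28 (SE 0.20), or 0.15 without mutant 3. Both isomerase genes were higher in the mutant of 4 of 4 pairs, as was hspa5, and as were 1484 of all tested genes (8%).

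For hsp90b1 (Grp94), the ER member of the Hsp90 family, the groups overlapped. Its levels were 268, 314, 443 and 398 CPM in mutants 1 to 4, against 343, 209, 225 and 295 CPM in siblings 1 to 4. Mutants 3 and 4 were the highest libraries, whereas mutant 1 lay below siblings 1 and 4. The log2 fold change was 0.41 (SE 0.24). The gene calr encodes calreticulin, a calcium-binding lectin chaperone of glycoproteins. It measured 212, 152, 279.9 and 227 CPM in mutants, against 226, 144, 195 and 207 CPM in siblings, and only mutants 3 and 4 exceeded every sibling. The log2 fold change of calr was 0.17 (SE 0.23). It was 0.03 without mutant 3, 0.06 without sibling 2 and 0.32 without mutant 2.

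**Figure D1:**
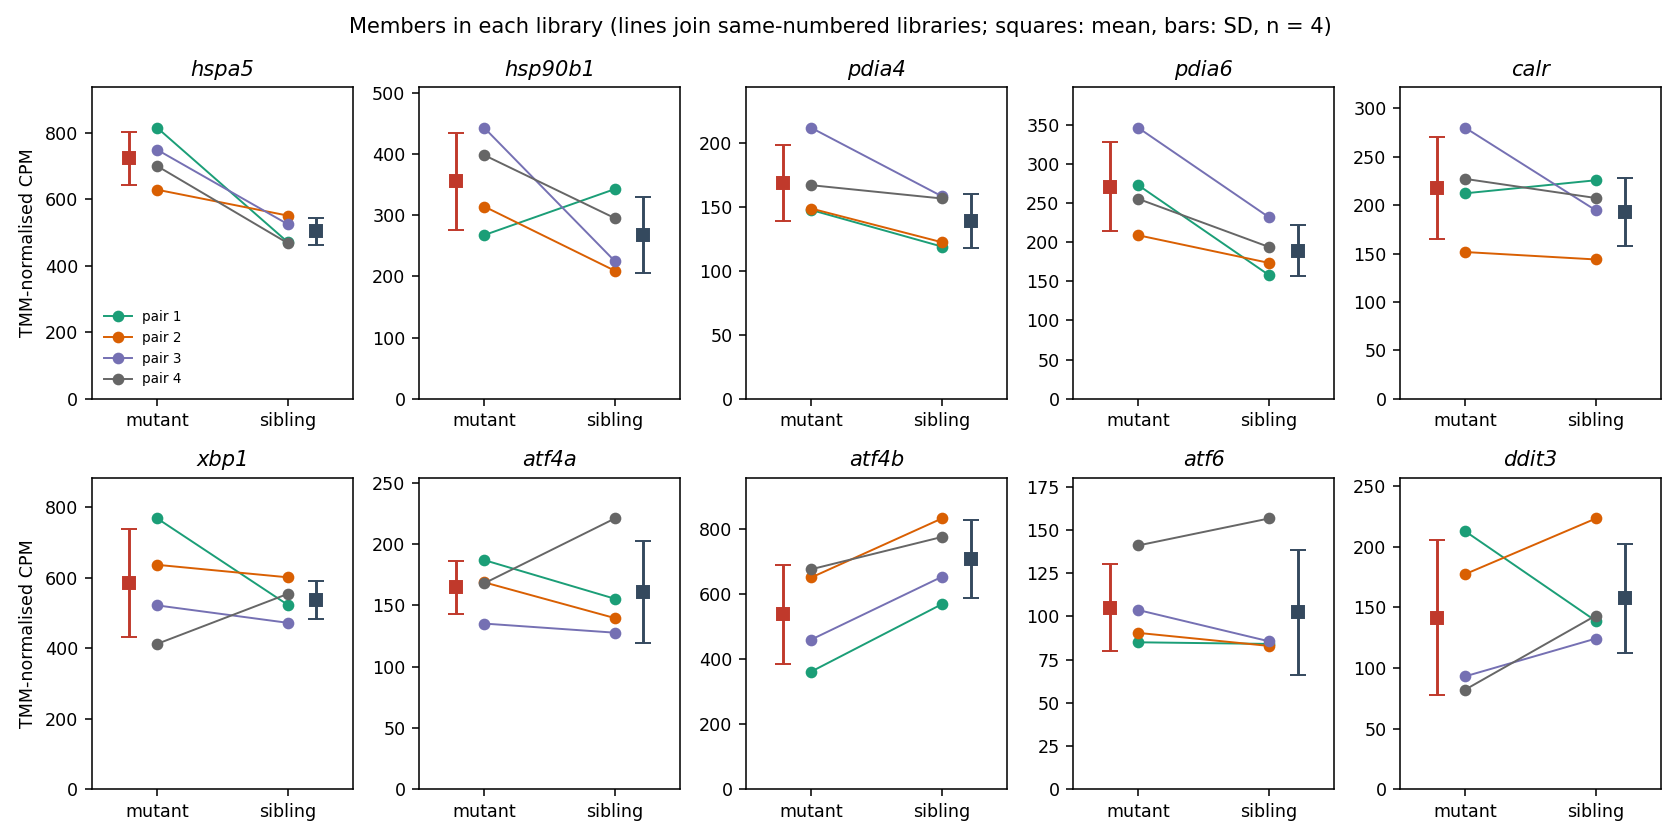
TMM-normalised CPM (y axis, from 0) of each of the 10 genes in mutant and sibling libraries, with lines joining libraries of the same number and squares with bars giving the mean and SD (n = 4). The hspa5 mutants sit between 628 and 815 CPM, above all siblings at 468 to 551 CPM, while the atf4b lines all run upward towards the siblings.

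The transcript of xbp1, the factor that Ern1 activates by splicing, showed no common direction. It was at 768, 636, 521 and 412 CPM in mutants 1 to 4, against 523, 601, 472 and 554 CPM in siblings 1 to 4. The mutants spanned the whole range, from the highest library to the lowest (log2 0.12, SE 0.22). Without mutant 1 the log2 fold change of xbp1 was -0.03. The sensor gene atf6 measured 85.0, 90.4, 104 and 141 CPM in mutants, against 84.0, 82.9, 85.6 and 157 CPM in siblings. Pair 4 stood high in both groups, and the other libraries lay close together (log2 0.04, SE 0.27). Leaving out mutant 4 gave atf6 a log2 fold change of -0.13, leaving out sibling 1, 2 or 3 gave -0.04, -0.05 and -0.04, and leaving out sibling 4 gave 0.32.

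Of the 3 genes of the Atf4 and Ddit3 arm, atf4b was the lower in mutants, while atf4a and ddit3 had no steady direction. Zebrafish have duplicate atf4 genes, both encoding transcription factors of the integrated stress response. The duplicate atf4b was at 362, 652, 461 and 677 CPM in mutants 1 to 4, against 569, 833, 654 and 776 CPM in siblings 1 to 4. Mutants 1 and 3 lay below every sibling, and mutants 2 and 4 lay within the range of the siblings. Within pairs the mutant was lower in 4 of 4, as for 1562 of all tested genes (8.42%). The log2 fold change of atf4b was -0.40 (SE 0.24), and with the replicate block -0.43 (SE 0.12, edgeR adjusted p = 0.71). Without mutant 1 the unblocked value of atf4b was -0.24.

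The other duplicate, atf4a, measured 187, 169, 135 and 168 CPM in mutants 1 to 4, against 155, 139.6, 128 and 221 CPM in siblings 1 to 4. The highest library was sibling 4 and the lowest sibling 3, so that the mutants lay inside the range of the siblings (log2 0.03, SE 0.22). The sign of atf4a turned without mutant 1, sibling 2 or sibling 3, to -0.03, -0.03 and -0.07. The gene ddit3 (Chop), a transcription factor tied to cell death under lasting ER stress, was at 213, 177, 93.2 and 82.2 CPM in mutants, against 139, 223, 124 and 143 CPM in siblings. Mutants 3 and 4 were the lowest libraries and mutant 1 stood just under sibling 2, the highest (log2 -0.15, SE 0.34). For ddit3 the value was 0.0045 without mutant 3, 0.04 without mutant 4 and 0.06 without sibling 2.

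The replicate numbers paired the libraries, and the pairs differed in which members were higher. In pair 1 the log2 ratios of mutant over sibling were 0.79 for hspa5 and 0.79 for pdia6, while hsp90b1 was at -0.36 and ddit3 at 0.61. Pair 3 had the largest ratios of hsp90b1 (0.98), calr (0.52) and pdia4 (0.42). The smallest hspa5 ratio was 0.19, in pair 2. In pair 4 hspa5 was at 0.58, whereas xbp1, atf4a and ddit3 were at -0.43, -0.39 and -0.80.

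Pairs 1 and 2 and pairs 3 and 4, fitted apart, gave similar values for hspa5 (0.48 and 0.55), pdia6 (0.52 and 0.50) and atf4b (-0.49 and -0.33). Values for pdia4 (0.27 and 0.27) and atf6 (0.05 and 0.02) were close too. The remaining members gave different values in the 2 sets of pairs. The log2 fold change of hsp90b1 was 0.05 in pairs 1 and 2 and 0.70 in pairs 3 and 4, and that of calr -0.04 and 0.34. For xbp1 these values were 0.30 and -0.13, for atf4a 0.25 and -0.20, and for ddit3 0.09 and -0.61. The difference between the 2 sets of pairs was not tested for any member.

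**Figure D2:**
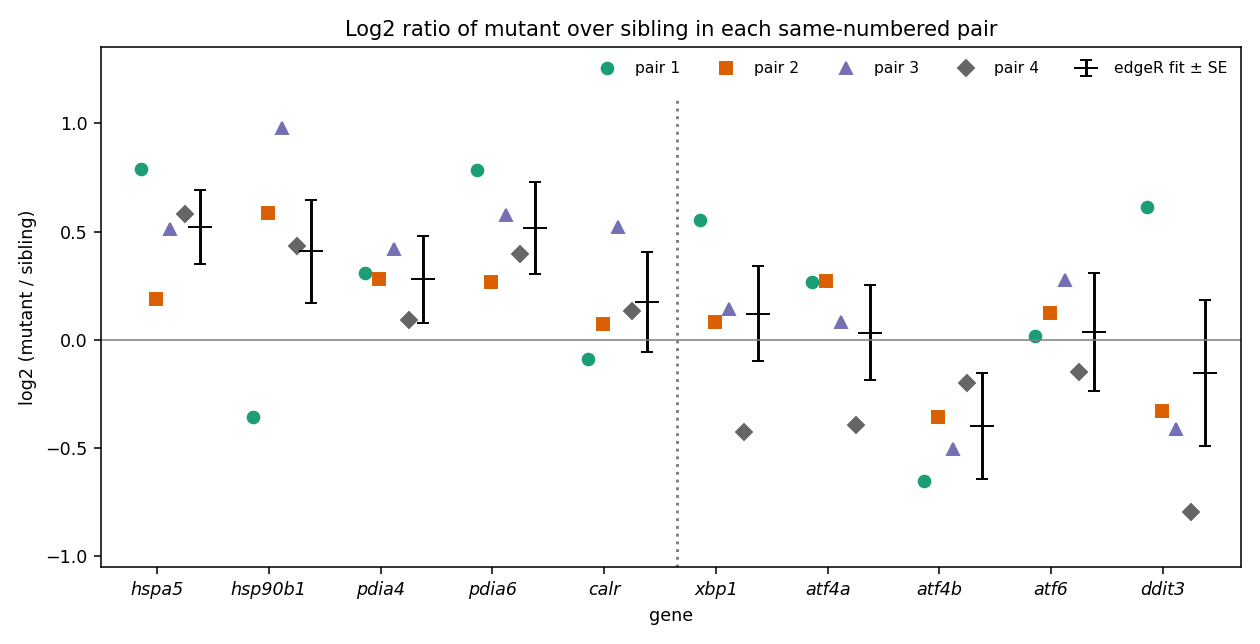
Log2 ratio of mutant over sibling (y axis) for each gene in pairs 1 to 4 (coloured symbols), with the edgeR log2 fold change and its SE in black; the dotted line separates the ER chaperones from the other genes. For hspa5, pdia4 and pdia6 all 4 pairs lie above 0, for atf4b all 4 lie below 0, and ddit3 runs from 0.61 in pair 1 to -0.80 in pair 4.

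Other tools treated these members differently. DESeq2 called 62 genes (0.337% of those with an adjusted p) and none of the 10 members, with an adjusted p of 0.36 for hspa5. With the replicate block it called 526 genes (2.84%), among them hspa5, which rose (log2 0.51, adjusted p = 0.019), pdia6, which rose (log2 0.50, adjusted p = 0.040), and atf4b, which fell (log2 -0.44, adjusted p = 0.020). In edgeR with the same block the adjusted p of these genes was 0.68, 0.70 and 0.71. The calls of the 3 genes therefore rest on DESeq2 with the block.

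Relative to atf4a, atf4b and ddit3 in the same library, the chaperones were higher in the mutant of each pair, though the groups overlapped. Among these 3 genes only atf4b was lower in 4 of 4 pairs. The wider list of the Atf4 and Ddit3 arm, described below, had a median log2 fold change of 0.09. The 5 chaperones summed to 1715, 1452, 2029 and 1747 CPM in mutants 1 to 4, against 1316, 1199.7, 1335 and 1321 CPM in siblings 1 to 4. Every mutant lay above every sibling. For atf4a, atf4b and ddit3 the sums were 762, 998, 689 and 927 CPM in mutants, against 863, 1196, 905 and 1140 CPM in siblings, lower in the mutant of 4 of 4 pairs but with overlapping groups. Since these sums follow the members with the most reads, the mean log2 level of each set was also compared. By that measure 3 of 4 pairs had a lower arm in the mutant, with differences of 0.08, -0.14, -0.28 and -0.46 in pairs 1 to 4, and the chaperones were higher in 4 of 4 (0.29, 0.28, 0.60 and 0.33).

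On that scale the chaperones minus the arm came to 0.23, -0.12, 1.03 and 0.54 in mutants 1 to 4, against 0.01, -0.54, 0.15 and -0.25 in siblings 1 to 4. The groups overlapped, and the mutant was higher in 4 of 4 pairs, by 0.21, 0.42, 0.88 and 0.79. The mean difference between groups was 0.57. A ratio of genes within a library does not depend on how libraries are scaled. The ratio of hspa5 to atf4b was 2.25, 0.96, 1.62 and 1.03 in mutants, against 0.83, 0.66, 0.80 and 0.60 in siblings, with every mutant above every sibling. The ratio of hspa5 to ddit3 was 3.83, 3.54, 8.03 and 8.51 in mutants, against 3.39, 2.47, 4.22 and 3.27 in siblings, where mutants 1 and 2 lay below sibling 3. These values describe members chosen with the results known, and no test is given for them.

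**Figure D3:**
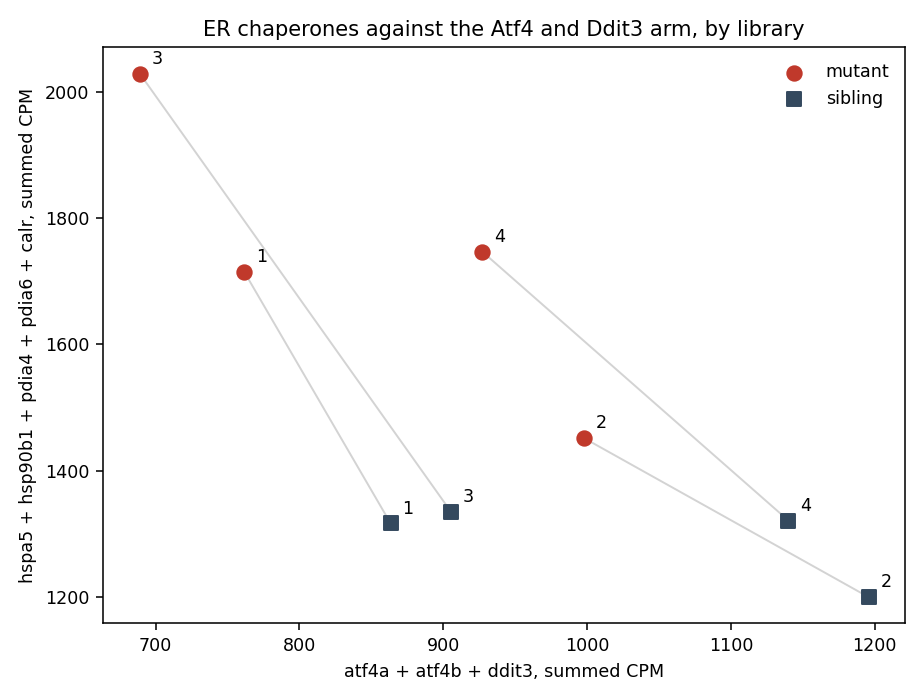
Summed CPM of the 5 chaperones (y axis) against the summed CPM of atf4a, atf4b and ddit3 (x axis) in each library, numbered by replicate, with grey lines joining pairs; neither axis starts at 0. Each line runs down and to the right from the mutant (red circle) to its sibling (dark square), and the 4 mutants lie at 1452 CPM or more on the y axis.

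The wider set of ER chaperones and folding enzymes held 35 tested genes, of which the 5 chaperone members are part. Of these 25 had a log2 fold change above 0, and the median was 0.17, against 50.2% and 0.0027 over all tested genes. Without the 5 members, 20 of 30 lay above 0, with a median of 0.14 (0.12 with the replicate block), and 4 were higher in the mutant of 4 of 4 pairs. At an unadjusted p under 0.05, hspa5, pdia6, HYOU1, MANF and CRELD2 lay higher and pdia2 lower, against 1.33% and 1.67% of all tested genes. None of the 35 passed after adjustment. DESeq2 with the replicate block called 4 of the 35, hspa5, pdia6, HYOU1 and MANF, all of which rose, against 2.84% of all genes. HYOU1, a large ER chaperone that exchanges nucleotide on Hspa5, had the smallest p of the set. It measured 105, 58.3, 73.7 and 67.6 CPM in mutants 1 to 4, against 39.0, 45.8, 34.3 and 29.3 CPM in siblings 1 to 4. Every mutant lay above every sibling, with a log2 fold change of 1.04 (SE 0.25, edgeR adjusted p = 0.9995).

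MANF, a secreted ER stress protein that is protective for neurons, stood at 70.18, 66.4, 97.6 and 77.1 CPM in mutants 1 to 4, against 43.5, 51.6, 54.9 and 28.3 CPM in siblings 1 to 4. Its groups did not overlap either (log2 0.80, SE 0.25). CRELD2, an ER protein induced by stress, was at 31.7, 18.1, 34.6 and 30.4 CPM in mutants, against 13.02, 11.4, 23.8 and 14.8 CPM in siblings, with mutant 2 below sibling 3 (log2 0.87, SE 0.34). CANX, the membrane lectin calnexin, chosen for mention after its values were seen, was the remaining gene of the set whose mutants all lay above the siblings (log2 0.38, SE 0.18). With hspa5, HYOU1 and MANF, 4 of the 35 were separated in this way, against 1.42% of all tested genes, and 7 were higher in the mutant of 4 of 4 pairs, against 8%.

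Other folding genes of the set were close to even. The isomerase gene PDIA3 had a log2 fold change of 0.12 (SE 0.17) and the cyclophilin gene PPIB one of 0.01 (SE 0.23), both named after their values were seen. The 1 gene lower at an unadjusted p under 0.05 was pdia2, an isomerase known from mammals as pancreatic. It measured 6.01, 2.84, 2.16 and 11.7 CPM in mutants 1 to 4, against 5.77, 6.51, 4.54 and 156 CPM in siblings 1 to 4, and sibling 4 alone set it apart. The same library held 53453 CPM of exocrine pancreas markers, against 86.7 to 1202 CPM in mutants and 481 to 1080 CPM in the other siblings. Without sibling 4, 29 of the 35 genes lay above 0, with a median of 0.24, and the count higher at an unadjusted p under 0.05 was 3. Without sibling 2 that count was also 3. Without mutant 1, mutant 4 and sibling 4 together it was 3, with 27 above 0.

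**Figure D4:**
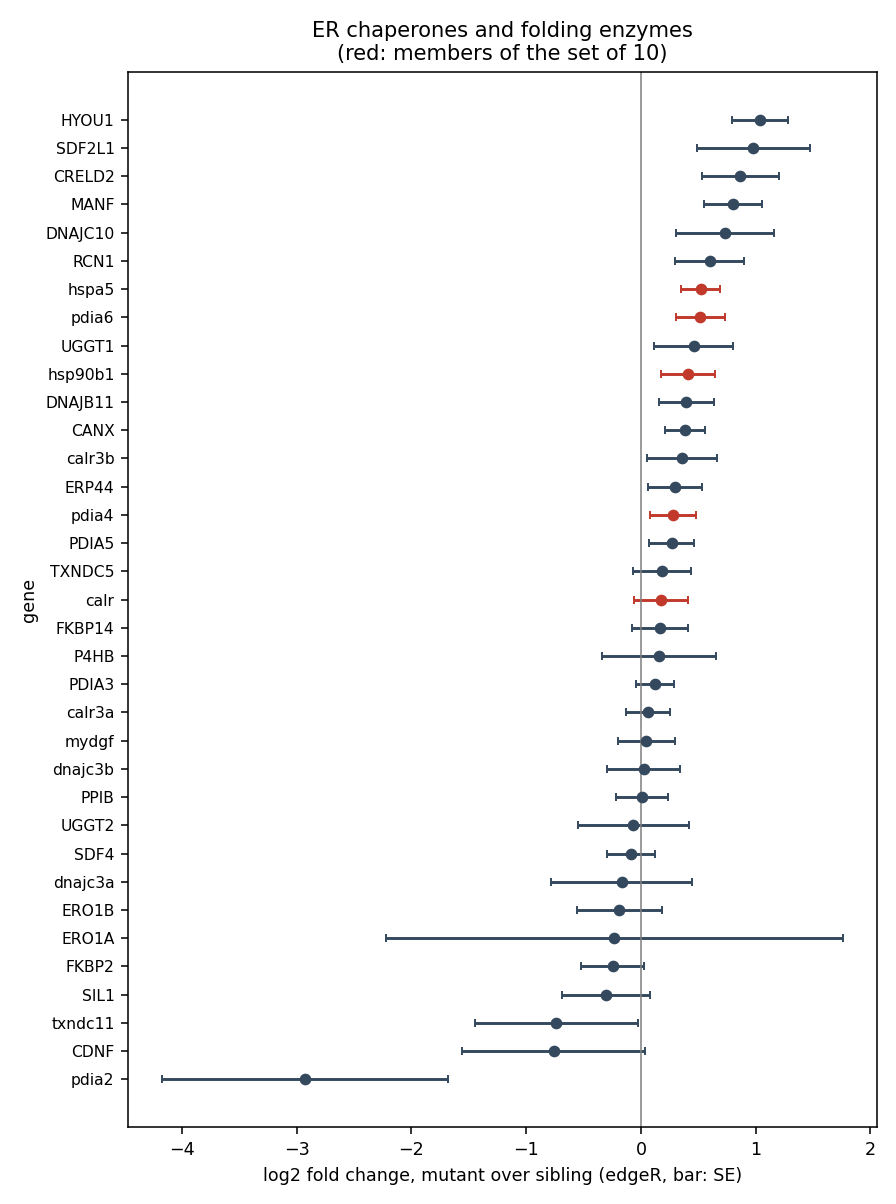
EdgeR log2 fold change of mutant over sibling with its SE (x axis) for the 35 tested ER chaperones and folding enzymes (y axis), ordered by value, with the 5 members in red. HYOU1 stands at the top at 1.04, hspa5 and pdia6 lie at 0.52, and pdia2 stands alone at -2.93 with a wide SE.

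The other ER lists had lower medians in this fit, and no difference between lists was tested. Of 20 genes of ER-associated degradation, which sends misfolded proteins to the proteasome, 8 lay above 0 and 12 below, with a median of -0.04 and none past an unadjusted p of 0.05. SYVN1, the ubiquitin ligase at its centre, was at 52.1, 64.0, 76.3 and 106 CPM in mutants 1 to 4, against 90.3, 109.8, 101 and 126 CPM in siblings 1 to 4. Each of the 4 pairs had less in the mutant, though mutant 4 lay above siblings 1 and 3 (log2 -0.52, SE 0.245). DERL2, of the exit channel, was higher in 4 of 4 pairs (log2 0.37, SE 0.21). RNF5, another ligase, had -1.03 (SE 0.68) and the lectin gene os9 -0.27 (SE 0.25). The sign of this list's median turned without mutant 3 (0.03), mutant 4 (0.0045) or sibling 4 (0.07).

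Translocon and signal peptidase genes, which bring proteins into the ER, had a median of 0.12, with 16 of 23 above 0 and none past an unadjusted p of 0.05. That median was 0.03 without sibling 2 and 0.07 without sibling 1. SEC61G, a subunit of the channel, had less in the mutant in each of 4 pairs (log2 -0.44, SE 0.23), while SRP14 of the signal recognition particle had 0.50 (SE 0.26). SPCS3, of the signal peptidase, was at -0.42 (SE 0.24). SRP68 had 0.79 (SE 0.47), with 41.7 CPM in mutant 1 and 10.8 to 15.3 CPM in the other mutants.

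Among 12 sensors and processing genes 6 lay above 0, with a median of -0.01. The sensor gene ern1, whose product splices xbp1, was at 14.5, 3.81, 9.98 and 9.84 CPM in mutants 1 to 4, against 5.02, 3.27, 3.68 and 3.87 CPM in siblings 1 to 4. Mutants 1, 3 and 4 exceeded every sibling (log2 1.27, SE 0.56, edgeR adjusted p = 0.9995). CREB3L2, a membrane-bound factor cut like Atf6, was higher in 4 of 4 pairs (log2 0.71, SE 0.32), and MBTPS2, a protease that cuts Atf6, was lower in 4 of 4 (log2 -0.30, SE 0.24). RTCB, the ligase that joins the spliced xbp1 ends in mammals, had 0.27 (SE 0.22). At an unadjusted p under 0.05 ern1 was the 1 gene of this list, where 1.33% of all tested genes were higher. Without mutant 1 or any 1 of the siblings there was none in the list. The list's median turned positive with the replicate block (0.01) and without mutant 2 (0.10), sibling 3 (0.07) or sibling 4 (0.12).

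Of 35 tested genes of the Atf4 and Ddit3 arm, the 3 members included, 21 lay above 0, with a median of 0.09. At an unadjusted p under 0.05 none was higher and 1 was lower, against 1.33% and 1.67% of all tested genes. The lower gene was nupr1b, a small stress-induced chromatin protein. It measured 34.2, 35.3, 14.9 and 13.9 CPM in mutants 1 to 4, against 47.2, 59.3, 43.2 and 87.1 CPM in siblings 1 to 4. Every mutant lay below every sibling, as for 1.83% of all tested genes (log2 -1.27, SE 0.39, edgeR adjusted p = 0.9995). At an unadjusted p under 0.05 with the replicate block, 2.88% of all tested genes were lower and 2.98% higher. Of this list 4 genes were lower and none higher. Named after their values were seen, these were nupr1b, atf4b, SLC3A2, a subunit of amino acid transporters, and ppp1r15a (Gadd34), which ends eIF2alpha phosphorylation. DESeq2 with the replicate block called 3 of the 35, atf4b, SLC3A2 and nupr1b, all of which fell, against 2.84% of all genes.

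The gene ppp1r15a was at 43.3, 128, 57.6 and 76.4 CPM in mutants 1 to 4, against 93.8, 133, 79.3 and 107 CPM in siblings 1 to 4, lower in 4 of 4 pairs (log2 -0.53 with the block). SLC3A2 was lower in 4 of 4 pairs as well (log2 -0.33 with the block). Of the 35 genes of the list, 5 were lower and 4 higher in the mutant of 4 of 4 pairs. Over all tested genes these shares were 8.42% and 8%. Of the other named genes of the arm, eif4ebp1, a translation repressor, had 0.33 (SE 0.22) and VLDLR, a lipoprotein receptor, -1.50 (SE 0.94). The pseudokinase gene TRIB3, a known Ddit3 target, had -0.13 (SE 0.24), and was named after its value was seen. The median of the arm was -0.11 without mutant 2 and -0.02 without sibling 3.

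Cytosolic aminoacyl-tRNA synthetases, which charge tRNAs and in mammals are partly under Atf4, lay above 0 for 18 of 19 genes, with a median of 0.28. Over all tested genes these values were 50.2% and 0.0027. The median log2 ratio of the list was 0.58, -0.02, 0.56 and 0.44 in pairs 1 to 4. Of the 19 genes 6 were higher in 4 of 4 pairs, against 8% of all tested genes. In 2 of the 19 every mutant lay above every sibling, against 1.42% of all tested genes. At an unadjusted p under 0.05, 2 were higher and none lower, against 1.33% and 1.67% of all tested genes, and none passed after adjustment. DESeq2 with the replicate block called KARS1 and VARS1, which rose, against 2.84% of all genes. KARS1 measured 312, 256, 233 and 181 CPM in mutants 1 to 4, against 183, 187, 158 and 118 CPM in siblings 1 to 4 (log2 0.60, SE 0.23). It was higher in 4 of 4 pairs, although mutant 4 lay below siblings 1 and 2. RARS1 stood at 335 CPM in mutant 1 and at 122 to 186 CPM in the other mutants, against 99.3 to 134 CPM in siblings (log2 0.77, SE 0.32). VARS1 had 0.9999 (SE 0.45) and YARS1 0.74 (SE 0.35), both higher in 4 of 4 pairs. The count at an unadjusted p under 0.05 was 4 with the replicate block, where 2.98% of all tested genes were higher. It was 0 without mutant 1, without sibling 3 or without sibling 4, and 1 without mutant 2.

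For eIF2alpha and its kinases (6 genes) the median was 0.05, and for cytosolic heat shock chaperones (21 genes, 12 above 0) it was 0.10, with none past an unadjusted p of 0.05 in either. An EIF2S1 gene (ENSDARG00000052178), encoding eIF2alpha, had -0.45 (SE 0.31), its duplicate (ENSDARG00000005827) 0.15 (SE 0.21), the kinase gene eif2ak1 -0.27 (SE 0.37) and EIF2AK4 0.35 (SE 0.68). Among the cytosolic chaperones an HSPA8 gene (ENSDARG00000068992) had -0.26 (SE 0.18) and an HSPA4 gene (ENSDARG00000004754) 0.53 (SE 0.34), while HSPA4L and DNAJB4, both at a few CPM, had -1.71 (SE 1.46) and -0.67 (SE 0.63). The signs of both medians turned with the replicate block, to -0.14 for the eIF2alpha list and -0.15 for the cytosolic chaperones, and without mutant 1 to -0.15 and -0.16. Without sibling 1 and sibling 3 they were -0.05 and -0.05 for the eIF2alpha list, and -0.02 and -0.06 for the cytosolic chaperones. The eIF2alpha list was also at -0.09 without mutant 2, -0.08 without mutant 3 and -0.02 without sibling 4.

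**Figure D5:**
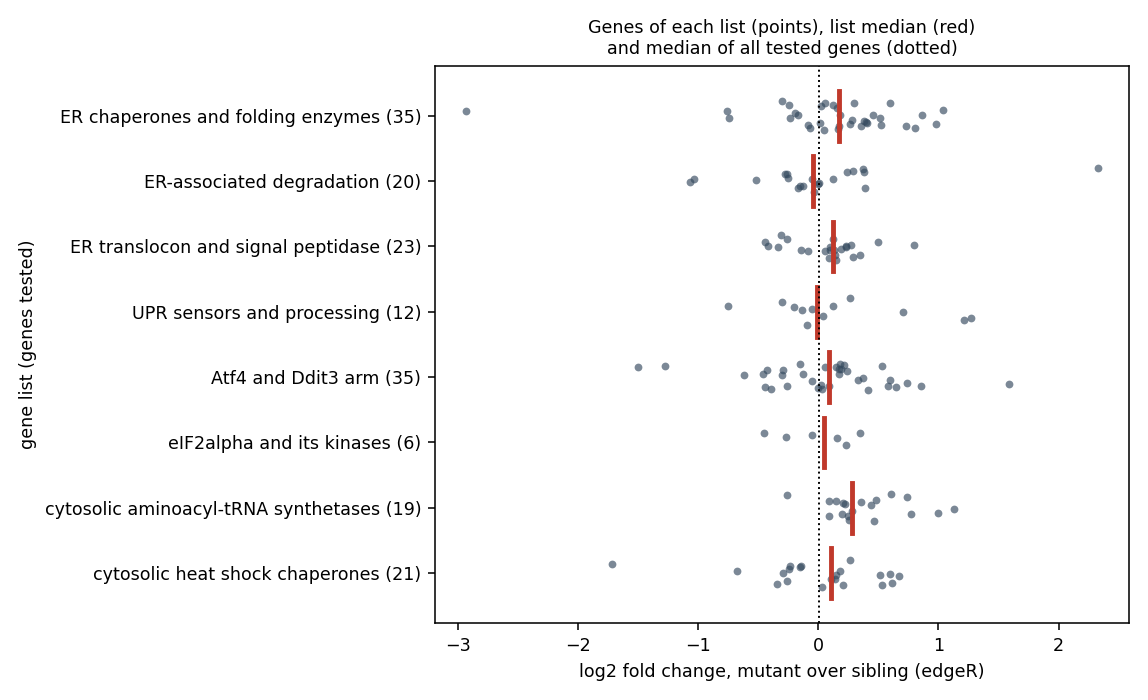
EdgeR log2 fold change of mutant over sibling (x axis) of every tested gene (points) in 8 lists (y axis, with the number of genes), with the list median in red and the median of all tested genes as a dotted line. The medians of the aminoacyl-tRNA synthetases (0.28) and of the ER chaperones and folding enzymes (0.17) lie farthest to the right, and those of ER-associated degradation and of the sensors lie at -0.04 and -0.01.

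Markers of some other cell types also differed between mutant and sibling within pairs. The 13 epidermal markers summed to 92802, 70854, 13245 and 4743 CPM in mutants 1 to 4, against 35593, 60752, 9738 and 2627 CPM in siblings 1 to 4, higher in the mutant of 4 of 4 pairs. A few keratins made up most of it, with krt4 alone at 54842 CPM in mutant 1. The groups overlapped in this sum. Of the 13 markers 11 lay above 0, against 50.2% of all tested genes, and 5 were higher in 4 of 4 pairs, against 8%. None had an unadjusted p under 0.05 in edgeR without the block. With the block 6 were higher at that threshold, against 2.98% of all tested genes. Within pairs 1 to 4 the log2 ratio of the epidermal sum was 1.38, 0.22, 0.44 and 0.85, and that of hspa5 was 0.79, 0.19, 0.51 and 0.58, in the same order of size. The levels of single libraries did not keep to this order. For hspa5 they were 815, 628, 748 and 699.5 CPM in mutants 1 to 4, against 471, 551, 525 and 468 CPM in siblings. Mutants 3 and 4 had more hspa5 than siblings 1 and 2, with smaller epidermal sums. Such libraries differ in both group and replicate, so this comparison does not weigh the part of epidermal RNA, which was not tested. Skeletal muscle markers lay above 0 for 10 of 11 genes, with a median log2 fold change of 0.78, and their sum was higher in the mutant of 3 of 4 pairs. The 14 cartilage, notochord and fibroblast markers summed to 460.1 to 3710.3 CPM in mutants and 335 to 1690.4 CPM in siblings, again higher in the mutant of 4 of 4 pairs. Most of that sum was col1a1a and COL1A2, at 1611 and 1637 CPM in mutant 1, and 4 of the 13 tested lay below 0. The 18 liver and yolk markers summed to 396 to 2709 CPM in mutants and 1116 to 5554 CPM in siblings, lower in the mutant of 4 of 4 pairs, with a median log2 fold change of -3.09 over the 16 tested. The sums of mutants 1 and 2 were mostly RBP4, at 1552 and 2545 CPM. RBP4 was the 1 tested liver and yolk marker above 0 (log2 0.25) and was higher in 4 of 4 pairs. All 14 tested exocrine pancreas markers lay below 0, and 9 were lower in 4 of 4 pairs, against 8.42% of all tested genes. The log2 ratio of the sum of the 15 pancreas markers was 0.05, -2.25, -2.56 and -5.48 in pairs 1 to 4. The sums of nerve, leukocyte, erythroid and of neural crest and pigment markers were each higher in the mutant of 1 of 4 pairs. That of secretory goblet and hatching gland markers was higher in 2. No marker of these lists was at 0 in all libraries, and their part in the differences of the members was not tested. In sibling 4, with its pancreatic RNA, hspa5 was at 468 CPM, against 471 to 551 CPM in the other siblings. These libraries differ in other markers too, and the part of pancreatic RNA was not tested. Without sibling 4 the log2 fold change of hspa5 was 0.49. Without mutant 1, mutant 4 and sibling 4, the libraries that limma-voom weighted least, the hspa5 value was 0.43. Since every mutant lay above every sibling in hspa5, leaving libraries out could not undo that order and does not test it.

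Across the 8 libraries the genes whose log2 level was most like that of hspa5 were sought among 11344 genes with a mean of at least 5 CPM. Among them were PES1 (Pearson r = 0.97), HYOU1 (0.97), THBS1 (0.95) and ZC3H15 (0.95), with Spearman's rho of 0.95, 0.98, 0.98 and 0.95. Without mutants 1 and 3, the libraries farthest from the median hspa5 level, r was 0.96, 0.93, 0.92 and 0.95. These genes were picked from the highest of many and share the libraries and the group difference, so no p is given. THBS1 encodes a secreted matrix glycoprotein. PES1, a nucleolar factor of the large ribosomal subunit, measured 167, 107, 152 and 113 CPM in mutants 1 to 4, against 75.3, 89.98, 95.3 and 78.0 CPM in siblings 1 to 4, with no overlap. Of the members pdia6 was the closest to hspa5 (r = 0.82) and atf4b the farthest in the opposite direction (r = -0.69).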

How the data were processed

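Libraries of sorted zebrafish endothelial cells, 4 from ddx21 mutants and 4 from siblings, were grouped by sample title, and table columns were matched to samples by the short names in the labels. The authors deposited a table of whole-number read counts per Ensembl gene, used for all tests. Their second deposited table holds log2 values that equal log2(CPM + 1) of those counts (largest difference 5e-14), used only as an alternative. The build GRCz11 and the tools edgeR, featureCounts, FastQC and Subread 2.0.0 are named, per the submitters' processing notes. Strand setting and annotation release were not given in the sources used here, so reads of antisense or near-identical genes may be split or lost.

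Counts were filtered (filterByExpr, minimum count 10, minimum total 15), scaled by TMM and fitted with edgeR 4.0.16 (quasi-likelihood, robust, group as the only term; R 4.3.3), with Benjamini-Hochberg adjustment over 18549 genes at 0.05. The SE is the log2 fold change divided by the root of its F statistic. Log2 levels and pair ratios used a pseudocount of 0.5. The calling was tested on simulated data, where it recovered 5 of 100 genes changed 2-fold and 50 of 100 changed 4-fold. Both sets were in the same run, which gave 3 false calls. The simulated spread between libraries followed the dispersion trend over all tested genes, not each gene's own spread. An absence of calls therefore does not show an absence of change of 2-fold or less. Alternatives were the replicate block, other scalings and filters, DESeq2 1.42.0, limma 3.58.1, single libraries left out, mutants 1 and 4 and sibling 4 left out, and pairs 1 and 2 or pairs 3 and 4 alone.

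Libraries of a group differed by much more than counting error (121 to 897 for chi-square over its degrees of freedom). Same-numbered libraries deviated together from their group means over all tested genes (r = 0.18 to 0.30 in each of 4 pairs). Other combinations ran from -0.27 to 0.15. Mutant 1 with sibling 2 and mutant 2 with sibling 1 were both at 0.15. Mutant 4 with sibling 3 was at 0.10 and mutant 3 with sibling 4 at -0.00045. Combinations of replicates 1 or 2 with replicates 3 or 4 all lay below 0. The numbers thus pair the libraries, but by little over the sharing within replicates 1 and 2. Symbols came from a name table covering 29201 of 32520 identifiers, often in human style (HYOU1), with synonyms from RefSeq genes of GRCz12tu, and 297 of 316 list symbols matched. The members and lists were chosen with earlier results of these data known. Genes named were the members, ddx21, up to 4 per list by smallest p, and the 5 most like hspa5 (mean of at least 5 CPM), 1 of which is not reported here, besides those said to be named afterwards. Promoter and protein sequences were not used here.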

Additional observations from a re-analysis of the deposited data

Results flagged for a closer look

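Among 124 checks of a group of 4 libraries for 1 library standing apart, 6 were flagged, where chance flags about 1 in 20. The level of atf6 in sibling 4 was 157 CPM, against 82.9 to 85.6 CPM in the other siblings. Mutant 1 stood high in SRP68, at 41.7 CPM against 10.8 to 15.3 CPM in the other mutants, and in RTCB, at 57.1 CPM against 41.8 to 43.1 CPM. The summed level of the 5 chaperones was low in sibling 2, at 1199.7 CPM against 1316 to 1335 CPM in the other siblings. Exocrine pancreas markers summed to 53453 CPM in sibling 4, against 481 to 1080 CPM in the other siblings. Nerve markers summed to 239 CPM in sibling 1, against 78.9 to 99.7 CPM in the other siblings.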

How the results depend on the processing

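Under 20 alternatives hspa5 (log2 0.43 to 0.59), pdia6 (0.38 to 0.62), pdia4 (0.15 to 0.45), hsp90b1 (0.05 to 0.70) and atf4b (-0.52 to -0.24) kept their direction, and so did the chaperones minus the arm under 15 (0.31 to 0.83). The alternatives reuse the same libraries and are not independent checks. For hspa5, whose groups did not overlap, leaving libraries out could hardly turn the sign. The replicate block in edgeR gave 0 calls, and the blocked hspa5 value was 0.52; DESeq2 with the replicate block called 526 genes and 3 of the members, hspa5 (0.51), pdia6 (0.50) and atf4b (-0.44). DESeq2 alone called 62 genes, limma on the deposited log2 values 2, edgeR without a filter 1 and pairs 1 and 2 alone 1. Without each library in turn 0 genes and 0 members were called. Without a filter the median of all genes shifted to -0.11. Medians of lists moved more than their spread between pairs in these cases. The cytosolic heat shock chaperones were at -0.15 with the block in edgeR, -0.15 with it in DESeq2, -0.14 in limma on the deposited values, -0.30 in pairs 3 and 4 and -0.10 without mutant 1, mutant 4 and sibling 4. In that last setting the translocon list was at 0.26. In pairs 1 and 2 ER-associated degradation was at 0.26 and the sensors at 0.29, and in pairs 3 and 4 the Atf4 and Ddit3 arm was at -0.0069. Leaving out single libraries gave medians from -0.16 to 0.19 for the heat shock list and from -0.11 to 0.16 for the arm. The causes were not tested. The spread between libraries limits these values more than depth does. Its median trended dispersion of 0.61 is taken over all tested genes and is not that of the members.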
